A study of Homo sapiens with 10 samples.

Results

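The response of 2 leukaemia lines to OR21 was set against that of 2 lines grouped as myelodysplastic syndrome (MDS) lines. The leukaemia lines were HL60, from acute myeloid leukaemia, and K562, from chronic myeloid leukaemia in blast crisis, and they received 500 nM OR21. MDSL and SKM1, grouped here as the MDS lines, received 100 nM. OR21 is the compound OR-2100, which the series calls a hypomethylating agent, and exposure lasted 96 hours in all 4 lines. Each line gave 1 OR21 array and 1 control array, so the comparison used 8 of the 10 arrays of the series and the 17687 genes that the platform annotation named. The other 2 arrays were of resistant HL60 derivatives. A response is the log2 level with OR21 minus the log2 level in the control of the same line, and the difference is the mean response of the leukaemia lines minus that of the MDS lines. The sides differ in dose as well as in disease of origin, and the 2 cannot be told apart. Per the labels, MDSL medium held interleukin-3 and 2-mercaptoethanol, and HL60 was grown in another basal medium than the MDS lines. Every group is 1 array of 1 established line.

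Hypomethylating agents are nucleoside analogues that enter DNA during replication and trap the maintenance methyltransferase DNMT1, so that daughter strands lose cytosine methylation. Genes silenced by promoter methylation can then be transcribed, endogenous double-stranded RNA can set off an interferon response, and damaged DNA can slow the cell cycle. In myeloid cells such agents are known for both differentiation and growth arrest.

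The 8 arrays had gene medians of 6.63 to 7.05 log2. Hybridisation spikes averaged 11.71 log2 on the HL60 array with OR21, away from 10.85 to 11.10 on the others. Several counts are therefore also given without HL60, but not all. The median of the background probes was 4.98 log2 for control MDSL and 5.41 to 5.43 for the other 7. A level at or under the median of its array counts as background. A response that starts or ends at background is of uncertain size, and one with both levels there could not be measured. The lines bore their lineage marks: embryonic globin HBE1 was at 15.96 log2 with OR21 and 13.59 in control K562, myeloperoxidase MPO was at 15.97 and 17.01 in HL60 and 15.99 and 17.08 in SKM1, and CD34 was at 13.71 and 14.68 in MDSL. Markers of other cell types were mixed. The T cell gene CD3G, the B cell gene MS4A1 and the endothelial gene CDH5 were at background on all 8 arrays, while CD3E, CD79A and PECAM1 of the same cell types were above it on all 8. CD79A lay between 7.31 and 11.49 log2 and PECAM1 between 6.51 and 14.82, and CD3D was at 6.99 with OR21 and 8.90 in control K562. The epithelial gene EPCAM was at 14.29 and 13.31 log2 in K562 and 12.06 and 12.46 in SKM1.

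With limma, 0 of 17687 genes passed an adjusted p of 0.05 for the difference between the sides (0.0%), and 968 had an unadjusted p under 0.05. The smallest adjusted p was 0.313, for COL14A1. For each other gene named here, the limma adjusted p of the difference was 0.877 or higher, so the differences below are measured sizes and none is called. The response of the leukaemia lines alone gave 0 calls (0.0%) with 2382 genes under an unadjusted 0.05. That of the MDS lines gave 1 call (0.00565%) with 1930 genes under it. An exact permutation of 2 lines against 2 cannot give a two-sided p under 0.333.

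By size alone, both leukaemia lines responded above both MDS lines in 3133 genes (17.7%) and below both in 3303 genes (18.7%). The nearest lines of the 2 sides were at least 2-fold apart in 271 genes, called separated here. Of these, 142 were higher in the leukaemia lines (0.803%) and 129 were lower (0.729%). With arrays scaled to their hybridisation spikes, 48 were higher and 300 lower. With K562 alone on the leukaemia side, 779 genes were higher and 714 lower, since fewer lines then have to lie apart. Separation came mainly from 1 side moving while the other stayed within 2-fold of its control. Among the 142, the MDS mean was at least 2-fold down with the leukaemia mean between in 60 genes, and the leukaemia mean was up with the MDS mean between in 51. Among the 129, the MDS mean was up in 65 and the leukaemia mean down in 38, with the other side between. Opposite moves of at least 2-fold were few, with 9 genes up on the leukaemia side and down on the MDS side and 2 the other way. In 26 of the 142 and 27 of the 129, at least 1 leukaemia line had both its levels at background, so no response could be measured there. The same held for at least 1 MDS line in 18 of the 142 and 3 of the 129.

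**Figure D1:**
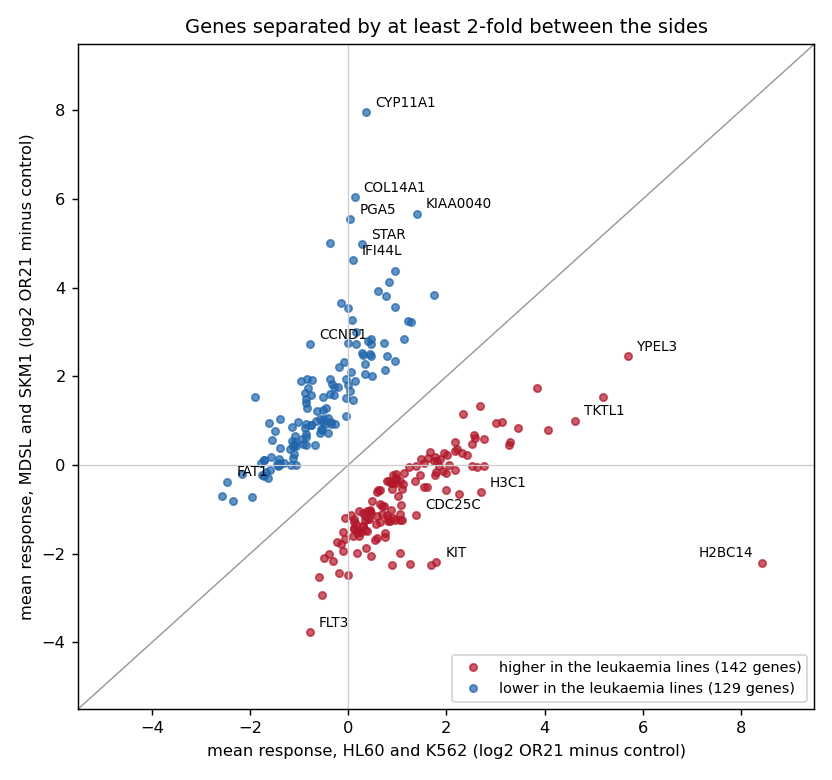
Mean response of HL60 and K562 (x axis, log2) against mean response of MDSL and SKM1 (y axis, log2) for the 271 genes whose sides lay at least 2-fold apart, with the line of equal response drawn. Most points lie near 1 of the 2 zero lines, and H2BC14 stands alone at the lower right.

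Taken by side, both leukaemia lines were at least 2-fold higher with OR21 in 288 genes (1.63%) and lower by this much in 288 (1.63%). In both MDS lines, at 100 nM, 443 were higher by this much (2.5%) and 281 lower (1.59%). HL60 moved most, with 1802 genes at least 2-fold up and 1962 down. K562 had 893 up and 682 down, MDSL 1170 and 864, and SKM1 1255 and 791.

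H2BC14, a replication-dependent histone H2B gene, had the widest gap between the sides. It was at 10.37 log2 with OR21 against 3.83 in control HL60, at 14.83 against 4.50 in K562, at 12.36 against 15.27 in MDSL and at 14.82 against 16.33 in SKM1. It was thus at background in both leukaemia controls, strongly expressed in both MDS controls, and within the range of the MDS lines in K562 after OR21. The difference was 10.65 ± 1.28 log2 (SE, 2 lines a side), and the leukaemia responses in it, from background, are of uncertain size. H3C1, a histone H3 gene, was at 10.34 log2 with OR21 against 7.84 in control HL60 and at 8.98 against 6.08 in K562. In MDSL it was at 8.40 against 8.83, and in SKM1 at 9.44 against 10.24. Here the leukaemia controls also started below the MDS controls, and OR21 brought HL60 above them, with a difference of 3.32 ± 0.38 log2.

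Histone genes as a group differed in the same direction. Of 40 measured members of the replication-dependent list, 34 were higher in both leukaemia lines than in both MDS lines and 0 were lower in both, against 17.7% and 18.7% of all genes. Without HL60 the count was 34, where 37.7% of all genes lay above, and after spike scaling it was 25, against 3.78%. Median responses were 0.20 log2 in HL60 and -0.16 in K562, against -1.41 in MDSL and -1.13 in SKM1. Of the 40, 11 were separated, all higher in the leukaemia lines, against 0.803% of all genes. In both MDS lines 21 were at least 2-fold lower, against 1.59% of all genes, and in both leukaemia lines 0 were, against 1.63%. H2BC10 responded by 0.71 log2 in HL60 and 0.79 in K562, against -1.42 in MDSL and -1.85 in SKM1. H3C3 responded by 1.69 and 2.82 in the leukaemia lines, both from background, against -1.14 and -0.19. Histone genes are near-identical copies of each other, so probe sets may share signal and the 40 are not independent.

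Mitotic genes lay higher in the leukaemia lines as a group, and 13 of the 30 measured were separated, against 0.803% of all genes. These genes build and control the spindle and are transcribed late in the cycle. All 30 measured members had a higher mean response in the leukaemia lines, and 28 were higher in both leukaemia lines than in both MDS lines, against 17.7% of all genes. Without HL60 all 30 were, against 37.7%, and after spike scaling 21 were, against 3.78%. The medians were 0.32 log2 in HL60 and 0.33 in K562, against -1.65 in MDSL and -1.05 in SKM1. The list median of the difference was 1.51 log2, against -0.01 for all genes. Both MDS lines were at least 2-fold lower in 15 members, against 1.59% of all genes, and both leukaemia lines in 0, against 1.63%.

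CDC25C, the phosphatase that activates CDK1 at entry into mitosis, was at 9.91 log2 with OR21 against 8.52 in control HL60 and at 10.57 against 9.18 in K562. In MDSL it was at 5.61 against 6.80 and in SKM1 at 7.77 against 8.82. No gene other than CDC25C and H2BC14 was at least 2-fold up in both leukaemia lines and at least 2-fold down in both MDS lines, and none showed the reverse. The difference for CDC25C was 2.51 ± 0.34 log2. KIF20A, a kinesin of cytokinesis, responded by 0.64 log2 in HL60 and 0.45 in K562, against -1.67 in MDSL and -1.72 in SKM1. The kinetochore gene NDC80 gave 0.86 and 0.85 against -1.47 and -1.05, and the spindle gene DLGAP5 gave 0.77 and 0.42 against -1.96 and -1.32. Cyclin B2, CCNB2, and the kinesin KIF2C moved less in the leukaemia lines, by 0.08 and 0.46 log2 and by 0.44 and 0.33. In the MDS lines CCNB2 gave -1.59 and -1.44 and KIF2C gave -1.64 and -1.34.

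The promoters of these genes carry known cell cycle letters. The windows below hold the 130 bases before the RefSeq start (GRCh38.p14), on the strand of the gene, for 2 mitotic and 2 histone genes that were separated. Capitals mark the cell cycle homology region, TTTGAA, in CDC25C (chr5:138331805-138331934, minus strand) and CCNB2 (chr15:59105016-59105145, plus strand). In H2BC14 (chr6:27814892-27815021, plus strand) and H2BC10 (chr6:26272801-26272930, plus strand) they mark the octamer, ATTTGCAT, an element known from histone H2B promoters.
CDC25C: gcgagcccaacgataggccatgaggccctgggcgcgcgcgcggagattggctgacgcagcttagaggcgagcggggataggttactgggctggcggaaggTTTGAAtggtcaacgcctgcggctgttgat
CCNB2: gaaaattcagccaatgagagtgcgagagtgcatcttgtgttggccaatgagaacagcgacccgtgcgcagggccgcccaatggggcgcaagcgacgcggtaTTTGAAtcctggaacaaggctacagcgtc
H2BC14: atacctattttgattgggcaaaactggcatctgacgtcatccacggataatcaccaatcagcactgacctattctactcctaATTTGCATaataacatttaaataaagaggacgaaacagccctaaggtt
H2BC10: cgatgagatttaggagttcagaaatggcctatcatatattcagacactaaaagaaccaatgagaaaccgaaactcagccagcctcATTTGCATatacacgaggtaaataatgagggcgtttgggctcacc
The matches begin 30, 29, 48 and 45 bases before the start in the order shown. Within 250 upstream bases, on either strand, TTTGAA was present in 14 of 26 mitotic genes with an entry, against 14.2% of 14250 named genes. It was present in 1 of 28 replication genes and 12 of 36 histone genes. The octamer was present in 15 of 36 histone genes, against 2.08% of all, and in 0 of 26 mitotic genes. CCAAT was present in 31 of 36 histone genes and 20 of 26 mitotic genes, against 40.5% of all. A match is a description of the letters, and binding was not measured.

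DNA replication genes separated the lines less cleanly, because HL60 sided partly with the MDS lines. The medians of the 32 measured members were -1.16 log2 in HL60 and -0.07 in K562, against -1.81 in MDSL and -1.37 in SKM1. In 21 members both leukaemia lines were above both MDS lines, against 17.7% of all genes. Without HL60 this was 31, against 37.7%, and after spike scaling it was 2, against 3.78%, a share near that of all genes. Both MDS lines were at least 2-fold lower in 23 members, against 1.59% of all genes, and both leukaemia lines in 0, against 1.63%. PRIM1, a primase subunit, responded by -0.65 in HL60 and 0.01 in K562, against -2.20 and -2.15 in MDSL and SKM1. TOP2A, topoisomerase II alpha, gave 0.90 and 0.49 against -1.62 and -0.58. FEN1, the flap endonuclease of Okazaki fragments, gave -0.97 and -0.62 against -2.20 and -1.79. The E2F site TTTCCCGC, spelled out on either strand, was present in 7 of 28 replication promoters against 2.33% of all.

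Repair genes of the Fanconi and homologous recombination pathways had medians of -0.79 log2 in HL60 and 0.24 in K562, against -1.11 in MDSL and -1.09 in SKM1. In 12 of 19 both leukaemia lines were above both MDS lines, against 17.7% of all genes. This was 18 without HL60, against 37.7%, and 2 after spike scaling, against 3.78%. BRCA1 responded by -0.02 and 0.71 in the leukaemia lines, against -1.22 and -0.96. FANCI gave -0.47 and 0.24 against -2.39 and -1.49.

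Regulators of the cycle moved in mixed ways. Cyclin D1, CCND1, was at 6.41 log2 with OR21 against 6.94 in control HL60 and at 6.00 against 7.03 in K562. It was at 9.88 against 6.73 in MDSL and at 8.11 against 5.80 in SKM1. It was therefore higher with OR21 in the MDS lines, where mitotic genes were lower, with a difference of -3.50 ± 0.45 log2. The cyclin-like gene CCNG2 showed the other order, at 11.30 against 8.08 in HL60 and 9.45 against 7.12 in K562, while MDSL was at 12.12 against 12.28 and SKM1 at 11.40 against 11.29. Its MDS controls were already close to or above the treated leukaemia cells. The CDK inhibitor CDKN1B gave 0.97 and 0.71 log2 in HL60 and K562, against -0.41 and -0.30 in MDSL and SKM1. CDKN1A, the p53-responsive CDK inhibitor, did not follow the sides, at 4.22 in HL60 and 1.14 in K562 against 4.03 in MDSL and 3.48 in SKM1. MYC, a driver of growth genes, responded by -4.62 and -0.76 against -2.48 and -2.47.

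**Figure D2:**
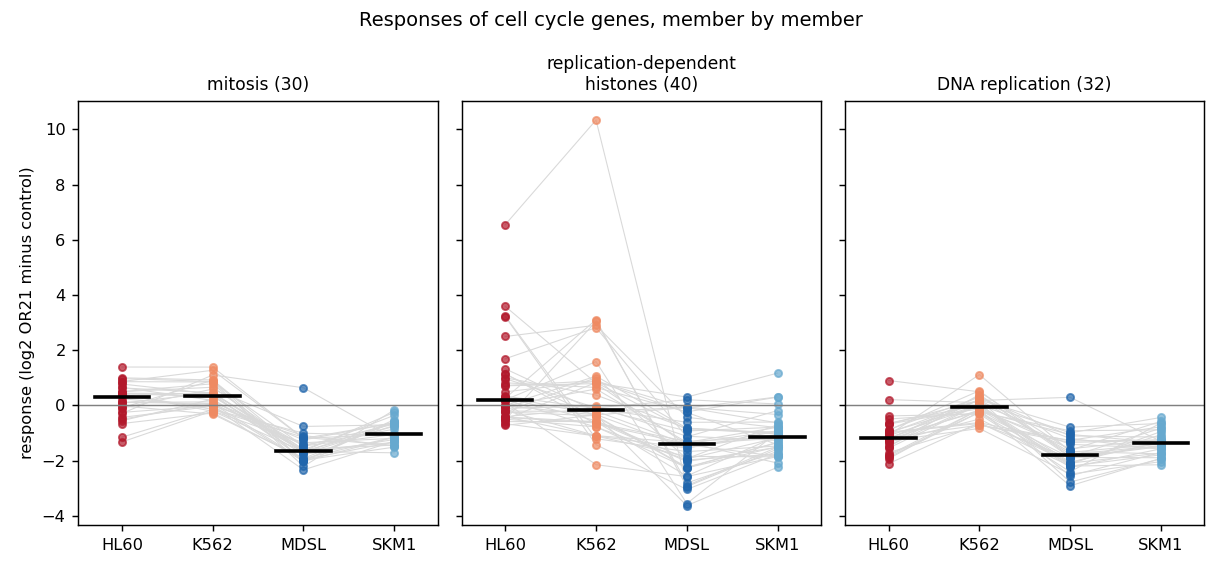
Responses (log2 OR21 minus control, y axis) of each measured mitotic, replication-dependent histone and DNA replication gene in HL60, K562, MDSL and SKM1, with a grey line per gene and a black bar at the median. Mitotic medians are 0.32, 0.33, -1.65 and -1.05, and replication genes are low in HL60 as well as in both MDS lines.

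Metallothioneins, small zinc- and metal-binding proteins induced by metal and stress, were higher after OR21 mainly in the leukaemia lines. All 8 measured members were higher in both leukaemia lines than in both MDS lines, against 17.7% of all genes. Without HL60 all 8 were, against 37.7%, and after spike scaling 5 were, against 3.78%. Medians were 1.60 log2 in HL60 and 2.34 in K562, against 0.59 in MDSL and 0.01 in SKM1. In both leukaemia lines 7 members were at least 2-fold higher, against 1.63% of all genes, and in both MDS lines 0 were, against 2.5%. MT1G was at 16.11 log2 with OR21 against 14.47 in control HL60, at 11.60 against 8.88 in K562, at 12.72 against 12.12 in MDSL and at 13.99 against 13.98 in SKM1. MT1H responded by 3.14 and 2.37 in the leukaemia lines, from background in K562, against 1.16 and -0.00. MT1E gave 1.49 and 2.19 against 0.32 and -0.35, and MT1F gave 2.83 and 2.31 against 1.19 and 0.14. These genes are close copies of each other, and their probe sets may share signal.

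Single genes with other roles were also higher in the leukaemia lines. TKTL1, a transketolase-like gene, was at 15.36 log2 with OR21 against 10.79 in control HL60 and at 15.97 against 11.29 in K562. In MDSL it was at 12.08 against 12.11, and in SKM1 at 13.57 against 11.55. The growth-arrest gene YPEL3 responded by 5.84 and 5.57 in HL60 and K562, against 1.83 and 3.08 in MDSL and SKM1, so both sides were above their controls. PPIC, a cyclophilin, gave 1.99 and 2.00 against -0.85 and -0.27. The cytidine deaminase APOBEC3B gave 3.35 and 1.68 against 0.29 and -0.34, and REXO5, an RNA exonuclease, gave 1.96 and 2.05 against 0.28 and 0.20. E-cadherin, CDH1, gave 3.59 in HL60 from background, while K562, at 5.06 against 3.42 log2, and both MDS lines stayed at background. In all, 33 genes were at least 2-fold up in both leukaemia lines with both MDS lines within 0.5 log2 of their controls.

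The stem cell factor receptor KIT and the receptor tyrosine kinase FLT3 mark myeloid progenitors. Both were separated and were lower with OR21 in both MDS lines, and KIT was also higher with OR21 in K562. KIT was at background on both HL60 arrays, at 5.12 log2 with OR21 against 4.27 in the control, so no response could be measured there. In K562 it was at 8.30 against 5.56. In MDSL it was at 10.55 against 12.54 and in SKM1 at 10.17 against 12.55. FLT3 was at 6.47 against 7.44 in HL60 and at background in K562. It was at 5.33 against 8.84 in MDSL, where the treated level was at background, and at 6.27 against 10.31 in SKM1. The differences were 3.99 ± 0.68 log2 for KIT and 2.98 ± 0.39 for FLT3. Of 39 genes at least 2-fold down in both MDS lines with both leukaemia lines within 0.5 log2 of control, MANEAL and FERMT1 were at background in both leukaemia lines. The adhesion-linked gene FERMT1 responded by -1.48 in MDSL and -1.74 in SKM1, from levels above background. The fructose transporter SLC2A5 gave 0.06 in HL60 and was at background in K562, against -2.57 in MDSL and -2.31 in SKM1.

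**Figure D3:**
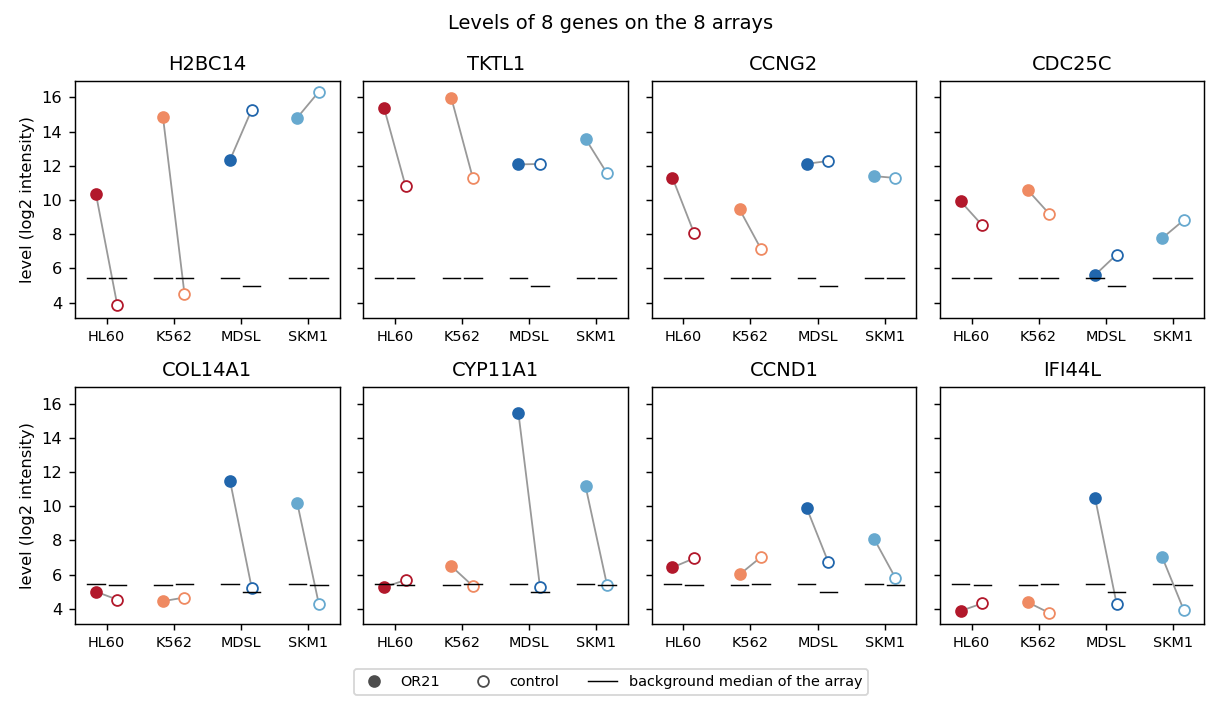
Levels (log2 intensity, y axis) of 8 genes with OR21 (filled) and in controls (open) of the 4 lines, with the background median of each array as a short bar. H2BC14, TKTL1, CCNG2 and CDC25C are higher with OR21 in HL60 and K562, and COL14A1, CYP11A1, CCND1 and IFI44L are higher with OR21 in MDSL and SKM1.

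Among genes lower in the leukaemia lines, COL14A1, a fibril-associated collagen, had the difference with the smallest p. It was at 5.00 log2 with OR21 against 4.53 in control HL60 and at 4.44 against 4.66 in K562, all at background. In MDSL it was at 11.45 against 5.23 and in SKM1 at 10.17 against 4.29. The difference was -5.92 ± 0.41 log2 (limma adjusted p = 0.313), with both MDS lines above both leukaemia lines. COL14A1 was also the single call in the MDS lines, where it rose by a mean of 6.05 log2 (limma adjusted p = 0.0451, higher in 2 of 2 lines). That call was lost under quantile normalization, median centring, values raised to background and the fit with no line block, and with any 1 line left out.

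CYP11A1 and STAR, which start steroid synthesis by cleaving cholesterol and carrying it into mitochondria, were higher with OR21 in the MDS lines. CYP11A1 was at 5.24 log2 against 5.69 in HL60 and at 6.49 against 5.33 in K562, beside 15.43 against 5.29 in MDSL and 11.15 against 5.37 in SKM1. STAR was at 8.38 against 8.81 in HL60 and at 12.82 against 11.84 in K562, beside 15.26 against 8.73 in MDSL and 12.51 against 9.08 in SKM1. STAR in control K562 was thus higher than in either MDS control. Their differences were -7.61 ± 1.46 and -4.70 ± 1.09 log2. Of the 9 steroidogenic genes measured, 3 were at least 2-fold higher in both MDS lines, against 2.5% of all genes. Separated and lower in the leukaemia lines were 2, against 0.729%. The mitochondrial electron carrier FDX1 gave -1.25 and -1.31 in HL60 and K562, against -0.03 and -0.27.

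The pepsinogen genes PGA5, PGA3 and PGA4, near-identical copies that encode a gastric protease precursor, behaved alike and cannot be told apart by array. PGA5 was at 5.50 log2 against 5.57 in HL60 and 5.84 against 5.69 in K562, beside 12.37 against 5.84 in MDSL and 9.89 against 5.32 in SKM1. The mast cell receptor chain FCER1A was at background in both leukaemia lines and responded by 2.42 in MDSL and 3.18 in SKM1. The secretion regulator RAB27B was at background on both HL60 arrays and gave 0.34 in K562, from background. In MDSL and SKM1 it gave 3.28 and 3.25. KIAA0040 was higher on both sides, by 1.55 and 1.24 in HL60 and K562 against 7.71 and 3.63 in MDSL and SKM1. HOXB2, a homeobox gene, was at background on both HL60 arrays and gave -1.35 in K562. In MDSL it gave 1.77 and in SKM1 2.13, the latter from background. BAMBI, a decoy receptor of TGF-beta signalling, gave -1.69 and -1.10 in HL60 and K562, against 0.97 and 1.12 in MDSL and SKM1. Another 50 genes were at least 2-fold down in both leukaemia lines with both MDS lines within 0.5 log2, among them the cadherin FAT1, at -2.81 and -2.13 against -0.33 and -0.42.

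Interferon-stimulated genes were higher with OR21 on both sides and more so in the MDS lines. Medians of the 38 measured genes were 0.85 log2 in HL60 and 0.52 in K562, against 1.72 in MDSL and 1.45 in SKM1. In both leukaemia lines 6 were at least 2-fold higher, against 1.63% of all genes, and in both MDS lines 19 were, against 2.5%. In 17 of 38 both leukaemia lines were below both MDS lines and in 2 they were above, against 18.7% and 17.7% of all genes. Without HL60 the count was 23 below and 10 above, against 34.7% and 37.7% of all genes. After spike scaling it was 18 below and 0 above, against 28.2% and 3.78%.

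IFI44L was at 3.87 log2 with OR21 against 4.31 in control HL60 and at 4.37 against 3.75 in K562, at background throughout. In MDSL it was at 10.48 against 4.30 and in SKM1 at 7.02 against 3.94, from background in both. The RNA-binding effector IFIT1 was at 6.65 against 4.77 in HL60, at 5.05 against 5.01 in K562, at 9.63 against 4.55 in MDSL and at 7.74 against 4.06 in SKM1. Both were above background with OR21 in each MDS line, and IFIT1 was so in HL60 too. EPSTI1 gave 0.92 and 0.55 at background in HL60 and K562, against 2.54 and 2.97, and the antiviral gene SAMD9L gave 0.08 and -0.66 against 1.36 and 2.15. Not every member followed this order. The mean response was higher in the leukaemia lines in 11 of the 38 genes and lower in 27. IFI6 gave 3.35 in HL60 and 5.16 in K562, against 3.67 in MDSL and 4.19 in SKM1. The RNA sensor RIGI, of another list, gave 1.71 and 1.80 against -0.38 and 1.27.

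The interferon-stimulated response element is TTTC followed, after any 2 bases, by TTTC. It is shown in capitals, on either strand, in the 130 bases before the RefSeq start (GRCh38.p14) of IFI44L (chr1:78620318-78620447, plus strand) and IFIT1 (chr10:89392493-89392622, plus strand), the 2 widest-separated members.
IFI44L: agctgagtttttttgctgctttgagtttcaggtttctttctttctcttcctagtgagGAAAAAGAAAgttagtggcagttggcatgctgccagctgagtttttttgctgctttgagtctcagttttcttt
IFIT1: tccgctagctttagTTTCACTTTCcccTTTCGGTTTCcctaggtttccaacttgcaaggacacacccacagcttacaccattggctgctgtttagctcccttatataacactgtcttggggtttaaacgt
IFI44L holds 1 match, beginning 73 bases before the start, and IFIT1 holds 2, beginning 116 and 103 bases before it. Within 250 upstream bases the element was present in 23 of 30 interferon-stimulated genes with an entry, against 3.56% of named genes, and in 0 of 26 mitotic genes.

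Genes of ribosome production were lower with OR21 in all 4 lines, most of all in HL60. Medians of the 31 measured ribosome biogenesis genes were -2.36 log2 in HL60 and -0.91 in K562, against -1.02 in MDSL and -0.84 in SKM1. In both leukaemia lines 15 were at least 2-fold lower, against 1.63% of all genes, and in both MDS lines 7 were, against 1.59%. In 12 both leukaemia lines were below both MDS lines, against 18.7% of all genes. Without HL60 the 12 stood against 34.7%, and 10 lay above, against 37.7%. Without K562, 27 lay below, against 39.0% of all genes. After spike scaling 12 lay below and 0 above, against 28.2% and 3.78%. NOP2, an rRNA methyltransferase, responded by -2.06 and -1.39 in HL60 and K562, against -0.18 and 0.42. NOP16 gave -3.87 and -2.19 against -1.52 and -1.29. The 31 mitochondrial ribosomal proteins had medians of -1.40 and -0.56 against -0.76 and -0.74, so K562 did not lie below the MDS lines. The chaperonin HSPE1 gave -2.65 and -1.46 against -0.66 and -0.44. FASN, the fatty acid synthase, was at 6.77 log2 with OR21 against 9.89 in control HL60 and at 9.56 against 11.58 in K562, beside 9.62 against 10.40 in MDSL and 9.64 against 10.29 in SKM1. Of 12 fatty acid genes, 4 were at least 2-fold lower in both leukaemia lines, against 1.63% of all genes. In both MDS lines 0 were, against 1.59%.

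**Figure D4:**
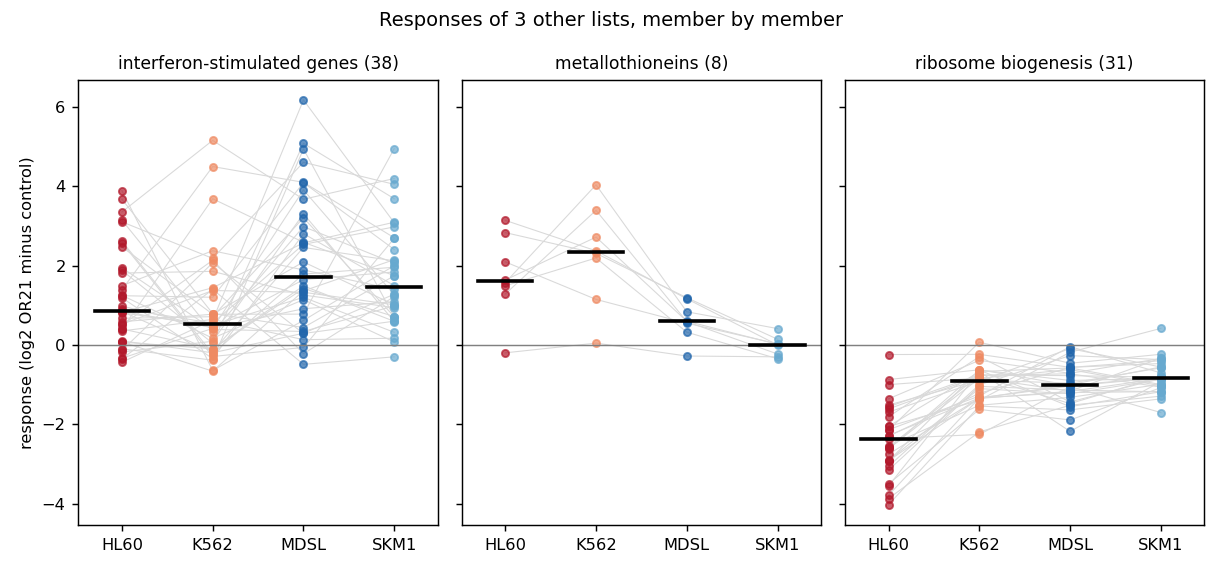
Responses (log2 OR21 minus control, y axis) of each interferon-stimulated gene, metallothionein and ribosome biogenesis gene in HL60, K562, MDSL and SKM1, with a grey line per gene and a black bar at the median. Metallothionein medians are 1.60, 2.34, 0.59 and 0.01, and the ribosome biogenesis median of HL60 is -2.36.

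The medians of the monocyte and erythroid lists did not follow the sides. The monocyte list of 33 genes had medians of 3.29 log2 in HL60 and 0.09 in K562, against 0.74 in MDSL and 2.14 in SKM1. In 3 of the 33 both leukaemia lines were above both MDS lines and in 4 below, against 17.7% and 18.7% of all genes. CD14, the endotoxin co-receptor, was 1 of the 3, at 6.97 in HL60 and 0.69 in K562, against -0.07 and 0.52. CYBB, the oxidase subunit of phagocytes, is not in this list. It gave 1.66 and 0.01 against 3.25 and 5.03 and was separated, lower in the leukaemia lines. Erythroid genes had medians of -0.15 in HL60 and 1.71 in K562, against 0.85 in MDSL and 0.07 in SKM1. MPO responded by -1.04 in HL60 and -0.95 in K562, against 4.49 in MDSL and -1.09 in SKM1. Of 33 haematopoietic transcription factors, 10 were lower in both leukaemia lines than in both MDS lines and 2 were higher, against 18.7% and 17.7% of all genes. GFI1B, an erythroid and megakaryocyte repressor, gave 1.64 and 0.90 in HL60 and K562, against 3.18 and 3.27, and the erythroid factor GATA1 gave 0.80 and 0.15 against 1.89 and 3.80. Of 19 megakaryocyte and mast cell genes, 7 were lower in both leukaemia lines than in both MDS lines and 2 were higher, against 18.7% and 17.7% of all genes. Those lower numbered 10 without HL60, against 34.7% of all genes, and 11 without K562, against 39.0%. They numbered 8 without MDSL, against 32.3%, and 12 without SKM1, against 32.0%. After spike scaling 7 were lower and 1 was higher, against 28.2% and 3.78%. ITGA2B, the platelet integrin chain, gave 0.93 and 0.39 against 1.71 and 3.94. ID3, an inhibitor of helix-loop-helix factors, gave 3.93 in HL60, from background, and 2.65 in K562, against 0.13 in SKM1. ID3 was at background on both MDSL arrays, so no response could be measured there.

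Genes that handle DNA methylation and nucleosides mostly showed small or mixed differences. Of 18 methylation genes measured, 1 was separated, lower in the leukaemia lines, against 0.729% of all genes. Of 21 nucleoside genes, 1 was separated, higher in the leukaemia lines, against 0.803%. DNMT1 responded by -1.07 log2 in HL60 and -0.44 in K562, against -1.90 in MDSL and -1.12 in SKM1, a difference of 0.75 ± 0.46. The de novo methyltransferase DNMT3A, the separated methylation gene, gave 0.98 and 0.92 against 2.66 and 2.05. DNMT3B gave 1.34 and -1.02 against -0.58 and 0.24. DCK, the kinase that activates deoxycytidine analogues, gave -0.33 and -0.16 against 0.67 and -0.18. Cytidine deaminase, CDA, gave 2.94 in HL60 and was at background in K562, against 2.30 and 1.13. The nucleoside transporter SLC29A1 gave -0.89 and 1.05 against 0.96 and -0.06, and SAMHD1, which hydrolyses deoxynucleotides, gave 1.77 and 0.66 against 1.11 and 1.26. Thymidine kinase TK1 gave -0.03 and 0.48 against -1.86 and -1.34, and was separated. Cancer-testis antigens, often silenced by methylation, had 10 of 27 members at least 2-fold higher in both leukaemia lines, against 1.63% of all genes, and 7 in both MDS lines, against 2.5%. PRAME reached 12.87 log2 with OR21 in HL60 and 16.42 in K562, with responses of 0.87 and 0.07. It reached 9.89 in MDSL and 12.80 in SKM1, with responses of 2.40 and 3.08. The germ cell gene GCNA gave 6.20 and 8.38 against 2.54 and 5.51, and SYCP3 of the synaptonemal complex gave 2.74 and 5.42, both from background, against 1.08 and 0.49.

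Lists with little difference between the sides included p53 targets, with medians of 0.33 log2 in HL60 and 0.12 in K562 against 0.27 in MDSL and 0.10 in SKM1. Housekeeping genes had medians of -0.22 and -0.12 against 0.07 and 0.04. In the marker lists of other cell types, 1 of 10 B cell genes and 1 of 13 epithelial genes were separated. Each was higher in the leukaemia lines, against 0.803% of all genes. Of the others, 0 of 17 T and NK cell, 0 of 15 fibroblast and endothelial and 0 of 12 neural genes were separated. The part of other cell types in these results was not tested.

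**Figure D5:**
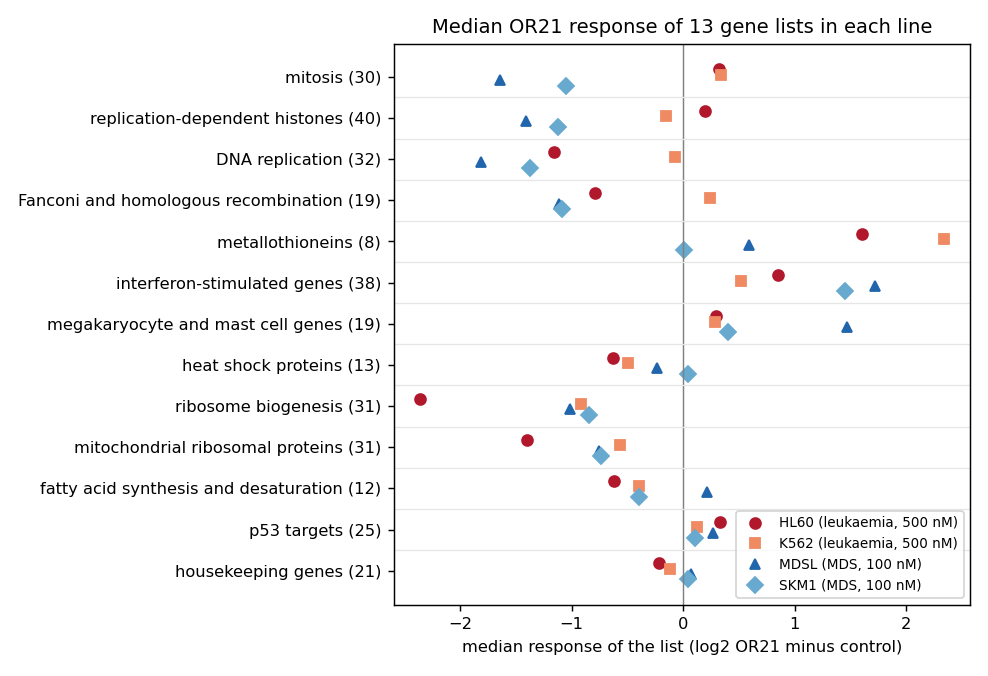
Median response (log2 OR21 minus control, x axis) of 13 gene lists in HL60, K562, MDSL and SKM1, with the number of measured genes in brackets. Mitotic genes lie above 0 in the leukaemia lines and below -1 in the MDS lines, metallothioneins are highest in K562, and the p53 targets of the 4 lines lie together.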

How the data were processed

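Linear intensities per probe set were deposited by the authors in 1 value table. Its software, background correction and normalization are not given in the sources used here. Their log2 was taken, without a pseudocount. The table held 24351 rows, of which 6642 were not listed in the platform annotation. It gave 1 symbol to 17709 probe sets and several to 0. For 20 genes with several probe sets the brightest was kept, leaving 17687. Each sample is 1 array, whose number limits the precision, and 0 columns belonged to no sample.

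The difference was fitted with limma 3.58.1 in R 4.3.3 (lmFit, eBayes, cell line as a block, two-sided, Benjamini-Hochberg over all genes), with 2 residual and 3.35 prior degrees of freedom. The line is the only replicate, and treated and control arrays of a line form the pair. Separate cultures are not stated, so p-values measure only the spread between these arrays. On simulated data for this comparison, over 17687 genes, the fit called 20 of 100 genes that differed by 2 log2, 98 of 100 that differed by 4, and 14 of 17487 unchanged genes.

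Named genes were the 14 widest gaps each way, up to 6 in each of 6 patterns, up to 4 per list and 10 fixed genes. These, the 52 lists (1025 measured genes) and the rule were chosen with earlier results of these data known. The 20090 RefSeq promoters matched 14250 genes. Alternatives covered normalization, values near background, dim genes, probe sets, the line block, the variance prior and each line left out. Counts of list members under them were added after seeing the data.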

Additional observations from a re-analysis of the deposited data

Results flagged for a closer look

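Of 52 list medians, 5 had both leukaemia lines on one side of 0 and both MDS lines on the other. Leukaemia minus MDS, these differences were 1.51 log2 for mitosis, 0.41 for epithelial markers, -0.22 for housekeeping genes, -0.25 for the unfolded protein response and -0.33 for NRF2 targets. These differences between the sides were not tested.

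Outside the comparison, the untreated resistant HL60 derivatives differed from parental control HL60 in genes that separated the sides, with 1 array each and no test. H2BC14 was higher by 8.74 log2 in the AZA-resistant and 5.27 in the OR21-resistant cells. PPIC was higher by 4.46 and 4.62, YPEL3 by 1.85 and 1.79, CCNG2 by 1.64 and 1.56, and NDC80 by 1.23 and 1.29. Of genes lower in the leukaemia lines, KIAA0040 was higher in the derivatives by 2.99 and 3.50, COL14A1 by 2.13 and 1.23, and CCND1 by 1.66 and 1.36. These values share the parental control array with the HL60 response.

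Among 3739 probe sets that the annotation left unnamed, 15 were separated by at least 2-fold higher in the leukaemia lines and 22 lower.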

How the results depend on the processing

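The difference between the sides had 0 calls under each alternative except scaling to the hybridisation spikes, which gave 18, among them H2BC14 (10.26 log2), COL14A1 (-6.31) and CYP11A1 (-8.00). That scaling lowered the median HL60 response to -0.81, against -0.05 as deposited, and the median difference to -0.40, against -0.01. It gave 464 calls in the leukaemia lines and 302 in the MDS lines, and left 48 genes separated higher (43 shared) and 300 lower (118 shared). In the MDS lines quantile normalization, median centring, values raised to background and no line block gave 0 calls, as did each leave-one-out fit (0 to 0). Leaving out 1 line gave 0 to 390 calls in the leukaemia lines, the 390 without K562. A single line then stands for a side and its spread is assumed to be like that of the others. Separated genes numbered 375 to 937 higher and 462 to 1072 lower with a line left out, since fewer lines have to agree.

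Of 222 named genes, 205 kept the sign of their difference under each alternative. Raising values to background reversed CT83 (-0.14), ENO2, HSD3B1, HOXD9 and PEG10 (-0.22 each), EBF1 (-0.13), MAP2 (-0.17), DNMT3B (-0.15) and CDA (0.68). Spike scaling reversed NARS1 (-0.021), STC2 (-0.021), POU2AF1 (-0.18), DNMT3B (-0.059) and SAMHD1 (-0.36), which median centring reversed too (-0.024). With a line left out, the differences of the genes that reversed ranged from -0.85 to 1.51 for DNMT3B, -1.79 to 1.22 for CDA, -1.34 to 0.60 for SLC29A1, -0.52 to 0.59 for SAMHD1, -2.62 to 0.46 for CDKN1A, -2.15 to 1.71 for MYC and -5.49 to 0.092 for MPO. The list median of E2F and G1-S cyclins became -0.0095 under spike scaling, that of polycomb genes -0.17, and that of imprinted genes -0.27, with -0.22 at raised background and -0.12 without dim genes. With a line left out, list medians ranged from -0.35 to 0.65 for E2F and G1-S cyclins, -0.33 to 0.33 for CDK inhibitors, -0.17 to 0.30 for imprinted genes and -0.32 to 0.010 for housekeeping genes. The cause of each reversal was not tested.
The small number of lines, dose, disease, medium and 1 array per condition limit all results. Levels near background can hide falls. Of the 129 genes separated lower in the leukaemia lines, controls were at background in 24 in HL60 and 25 in K562. The counts were 7 in MDSL and 22 in SKM1. Of the 142 separated higher, they were 36, 38, 13 and 16 in the same order of lines.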
